A study of Homo sapiens with 4 samples.

Results

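The alpha-amylase genes AMY1A, AMY1B, AMY1C, AMY2A and AMY2B and the alcohol dehydrogenase gene ADH1C were followed across guide RNA (gRNA) libraries of the NCI-H1048 line, human small cell lung cancer cells in long-term culture that belong to the tuft cell-like subtype. They were 6 of 35979 gene symbols, matched by symbol, and they had been chosen by their normalized counts, which were far lower in the library with a gRNA against POU2F3 than in the library with a non-targeting gRNA. The values of that comparison are therefore a description and carry no test. POU2F3 is the transcription factor that defines the tuft cell-like subtype, and COLCA2 encodes a co-activator of it. The groups were cells labelled WT with a non-targeting gRNA (1 library), cells labelled COLCA2 knockout (2 libraries, each made with a different COLCA2 gRNA) and cells labelled POU2F3 knockout with a POU2F3 gRNA (1 library). All libraries were of the same cell line. The labels do not say whether the cells were clones, pools or separate cultures, so the only measure of error is the difference between the 2 COLCA2 libraries, in which the effects of guide, culture and library are joined.

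Alpha-amylases cut the internal bonds of starch and glycogen. The AMY1 genes encode the amylase of saliva, AMY2A encodes that of the pancreas, and AMY2B encodes a closely similar enzyme that is found in other tissues too. They arose by duplication and lie side by side, so short reads from them are hard to tell apart. ADH1C encodes a subunit of class I alcohol dehydrogenase, a liver and gut enzyme family that oxidises ethanol and also retinol, and its neighbours ADH1A and ADH1B encode the other subunits of that class.

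Reads assigned to genes numbered between 21587741 and 29632382 per library. Values are normalized counts, in which 1 read was worth between 0.839 and 1.18. Ratios are log2 values of normalized count + 1, a scale that understates the change of low genes with reads in both libraries. For a value of 0 the ratio rests on the added 1 and can exceed the bound at 3 reads given below. The median log2 ratio over the 14940 genes whose mean over the libraries reached 20 normalized counts lay between -0.013 and -0.0017 in every pair of libraries compared. The targeted transcript POU2F3 stood at 14602 in the non-targeting library, at 3677 and 2351 under COLCA2 gRNA 1 and 2, and at 1449 under POU2F3 gRNA. In the same order COLCA2 had 5585, 3119, 3541 and 1393. A gRNA can disrupt a coding sequence without lowering its transcript, so these levels do not measure how complete the editing was.

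Positions below follow the GRCh38 annotation of GENCODE 29. On the plus strand of chromosome 1, AMY2B (ENSG00000240038) lies at chr1:103553815-103579534, AMY2A (ENSG00000243480) at chr1:103616811-103625780, AMY1A (ENSG00000237763) at chr1:103655290-103664554 and AMY1C (ENSG00000187733) at chr1:103750406-103758690. AMY1B (ENSG00000174876) lies between AMY1A and AMY1C on the minus strand, at chr1:103687415-103696680, and the 5 genes span 204876 bp. ADH1C (ENSG00000248144) lies on the minus strand of chromosome 4 at chr4:99336492-99353027. The stretches before the start sites are shown because those of AMY2A and AMY2B are nearly the same although their values differed with POU2F3 gRNA, while the AMY1 genes share another sequence. All 6 genes had an entry in the RefSeq promoter table (GRCh38.p14), and each sequence below runs from position -250 to -51 relative to the RefSeq start, 5′ to 3′ on the plus strand. Capitals mark matches, on either strand, to the octamer ATGCAAAT with at most 1 mismatch.
AMY2B, chr1:103571339-103571538: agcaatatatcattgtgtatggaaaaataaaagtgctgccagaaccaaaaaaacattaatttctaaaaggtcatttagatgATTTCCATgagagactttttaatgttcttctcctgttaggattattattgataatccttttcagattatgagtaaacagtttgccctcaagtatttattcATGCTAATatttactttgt
AMY2A, chr1:103617177-103617376: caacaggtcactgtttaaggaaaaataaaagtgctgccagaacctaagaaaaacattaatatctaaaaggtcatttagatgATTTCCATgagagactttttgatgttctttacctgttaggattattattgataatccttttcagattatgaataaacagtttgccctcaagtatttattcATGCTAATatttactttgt
AMY1A, chr1:103655510-103655709: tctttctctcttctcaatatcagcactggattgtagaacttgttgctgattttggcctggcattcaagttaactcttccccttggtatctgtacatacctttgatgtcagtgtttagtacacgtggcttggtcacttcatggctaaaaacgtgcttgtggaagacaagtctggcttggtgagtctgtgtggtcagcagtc

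Over the full RefSeq window of 300 bases (250 before the start and 50 after it), AMY1A, AMY1B and AMY1C were identical at 300 of 300 positions. AMY2A and AMY2B were 95.3% identical, with 12 mismatches and 2 gap bases. The octamer ATGCAAAT is the sequence that POU2 class factors are known to bind. Searched on both strands, it was in 1.77% of 35116 promoter windows and in none of the 6 genes, and its first 7 bases ATGCAAA were in 4.46% of windows and in none of the 6. With at most 1 mismatch allowed, 17.1% of windows held it, among them those of AMY2A and AMY2B, each with ATGCTAAT at -69 and ATTTCCAT, a match on the other strand, at -169. The form ATGCTAAT, looked for after the sequences had been read, was in 0.649% of windows. The TATA box letters TATAAA were in 11.5% of windows, and at -29 in AMY2A and AMY2B. None of these letters were found in the windows of the AMY1 genes or of ADH1C. These matches describe the letters in the windows and are not evidence of binding.

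The RefSeq and GENCODE starts of AMY2B were far apart: the RefSeq start lies 17774 bp inside the GENCODE gene, whose first exons reach back to RNPC3. For AMY2A the distance was 616 bp, and for AMY1A and AMY1B it was 470 bp. The AMY2A and AMY2B windows thus describe one start of each gene, and for AMY2B not the outermost one.

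In the non-targeting library AMY2B, AMY2A and AMY1C were well expressed and held nearly all amylase reads, while AMY1A had 11 reads and AMY1B 0. Per kilobase of the longest annotated transcript, AMY2A had the highest level with 345 normalized counts, followed by AMY1C with 274, AMY2B with 143, ADH1C with 60.9 and AMY1A with 5.87. This order depends on the transcript chosen, since AMY2B has 8 annotated transcripts and its longest has 4716 bases, against 1862 for AMY2A and 1632 for the single transcript of AMY1C. With POU2F3 gRNA the order was different: AMY2B came first with 28.5 per kilobase, ahead of AMY1C with 3.09 and AMY2A with 2.25. ADH1C and AMY1A were listed at 0 there.

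AMY2A, the pancreatic amylase gene, stood at 642 normalized counts (672 reads) in the non-targeting library, 152 (147 reads) with COLCA2 gRNA 1, 121 (103 reads) with COLCA2 gRNA 2 and 4.197 (5 reads) with POU2F3 gRNA. The COLCA2 libraries lay between the single non-targeting and POU2F3 gRNA libraries, whose gap had chosen the gene. The POU2F3 gRNA library held 0.654% of the non-targeting level, with an exact 95% interval, for counting error alone, of 0.212% to 1.53%. The log2 ratio to the non-targeting library was -6.95 with POU2F3 gRNA and -2.23 ± 0.23 (SD, n = 2) with the COLCA2 guides.

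AMY1C, one of the salivary amylase genes, followed the same order. The non-targeting library had 447 normalized counts (468 reads), the COLCA2 libraries 101 (97 reads) and 75.3 (64 reads), and the POU2F3 gRNA library 5.04 (6 reads). The POU2F3 gRNA library held 1.13% of the non-targeting level (exact 95% interval 0.411% to 2.47%). The log2 ratio was -6.21 with POU2F3 gRNA and -2.35 ± 0.29 (SD, n = 2) with the COLCA2 guides.

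AMY2B stood apart from these genes with POU2F3 gRNA. The non-targeting library had 675 normalized counts of it (707 reads), the COLCA2 libraries 191 (184 reads) and 162 (138 reads), and the POU2F3 gRNA library 134 (160 reads). The POU2F3 gRNA library was the lowest. Its level was 70.4% of that with COLCA2 gRNA 1 (exact 95% interval, for counting error alone, 56.6% to 87.5%). It was 82.7% of that with COLCA2 gRNA 2 (65.5% to 105%), an interval that held 100%. Both ratios use the POU2F3 gRNA library by which the genes were chosen, so they are a description. The log2 ratio to the non-targeting library was -2.32 with POU2F3 gRNA and -1.93 ± 0.16 (SD, n = 2) with the COLCA2 guides. AMY2B thus held 19.9% of its non-targeting level with POU2F3 gRNA, where AMY2A held 0.654% and AMY1C 1.13%.

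The other salivary genes received few reads or none. AMY1A had 11 reads in the non-targeting library (a normalized count of 10.5), 4 and 1 in the COLCA2 libraries, and 0 in the POU2F3 gRNA library. Its level with COLCA2 gRNA 1 was 39.5% of the non-targeting level, with an interval for counting error of 9.17% to 133%. That interval held the non-targeting level itself. With COLCA2 gRNA 2 the level was 11.2%, with an interval of 0.26% to 77.0%. With POU2F3 gRNA AMY1A was at least 4.17-fold lower than in the non-targeting library, counted against 3 reads in the POU2F3 gRNA library. AMY1B was listed at 0 in all 4 libraries, and neither gene reached the mean of 20 used for counts. AMY1C, whose annotated transcript is almost wholly contained in those of AMY1A and AMY1B, held nearly all reads of the salivary type, so the values of the single AMY1 genes are uncertain and their sum is the safer quantity.

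ADH1C, the class I alcohol dehydrogenase gene, stood at 106 normalized counts (111 reads) in the non-targeting library, 18.7 (18 reads) with COLCA2 gRNA 1, 17.6 (15 reads) with COLCA2 gRNA 2 and 0 with POU2F3 gRNA. The COLCA2 libraries were close to each other and lay between the single libraries by which the gene was chosen. With POU2F3 gRNA it was lower than in the non-targeting library by at least 42.1-fold, a log2 bound of -5.40 counted against 3 reads and without the counting error of the non-targeting reads, and lower by at least 7.01-fold than with the COLCA2 guide nearest to it. With the COLCA2 guides the log2 ratio to the non-targeting library was -2.48 ± 0.05 (SD, n = 2).

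**Figure D1:**
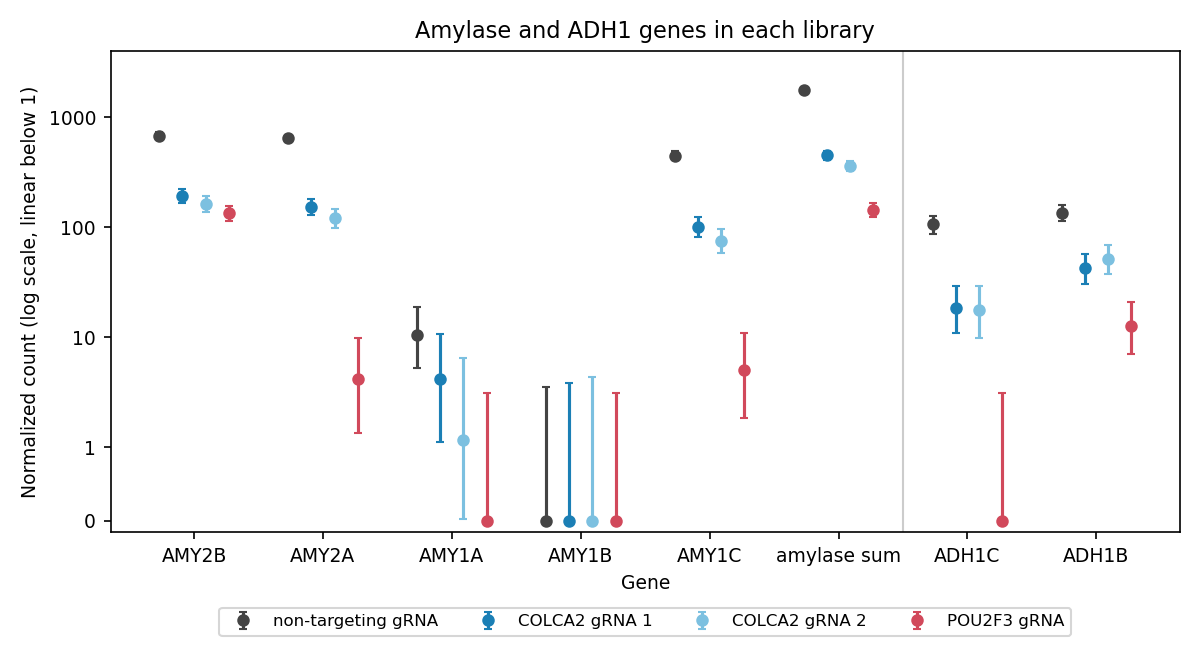
Normalized count of each amylase gene, of the amylase sum, of ADH1C and of its neighbour ADH1B (vertical axis, logarithmic above 1 and linear below) in the 4 libraries (colours). Bars are exact Poisson 95% intervals for counting error only; AMY2B keeps 134 with POU2F3 gRNA where AMY2A has 4.197, AMY1C 5.04 and ADH1C 0.

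Summed over the 5 near-identical genes, amylase reached 1774 normalized counts (1858 reads) in the non-targeting library, 448 (432 reads) and 360 (306 reads) in the COLCA2 libraries, and 144 (171 reads) in the POU2F3 gRNA library. The libraries stood in the same order as by their POU2F3 transcript. The POU2F3 gRNA library held 8.09% of the non-targeting sum (exact 95% interval 6.88% to 9.47%), which is -3.62 as a log2 ratio. With the COLCA2 guides this ratio was -2.14 ± 0.22 (SD, n = 2). Without AMY2B the sums were 1099, 257, 198 and 9.23 in the same order of libraries, and the log2 ratio with POU2F3 gRNA was -6.75. In bulk RNA, fewer cells that express a gene and less RNA per cell cannot be told apart.

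The division of amylase reads over the genes was far more unequal with POU2F3 gRNA than in the other libraries. AMY2B took 38.1% of amylase reads in the non-targeting library (exact Clopper-Pearson 95% interval 35.8% to 40.3%, counting error only). It took 42.6% with COLCA2 gRNA 1 (37.9% to 47.4%) and 45.1% with COLCA2 gRNA 2 (39.4% to 50.9%), intervals that overlapped each other. With POU2F3 gRNA it took 93.6% (88.8% to 96.7%). The genes were chosen by their fall in that library, so this share is a description and no test. AMY2A took 36.2% in the non-targeting library, 34.0% and 33.7% with the COLCA2 guides and 2.92% with POU2F3 gRNA, and AMY1C took 25.2%, 22.5%, 20.9% and 3.51%. AMY1B was assigned 0 reads in every library. The exact 95% upper limit of its assigned share was 0.198% in the non-targeting library and 2.13% with POU2F3 gRNA. Reads of AMY1B that were counted to AMY1C would not be in this limit.

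**Figure D2:**
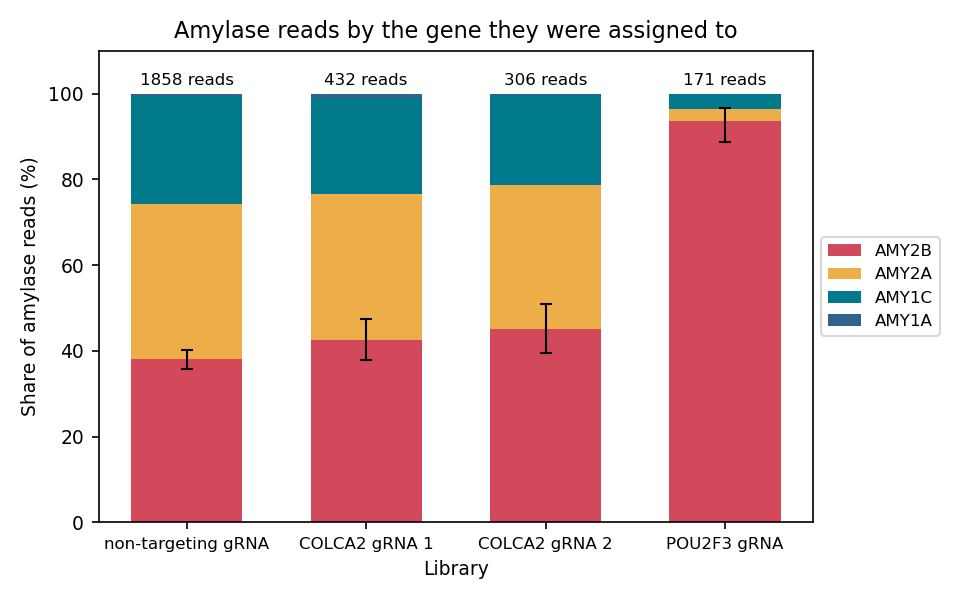
Share of amylase reads assigned to each amylase gene (vertical axis, percent) in the 4 libraries, with the number of amylase reads above each bar and the exact 95% interval of the AMY2B share. AMY2B takes 38.1% to 45.1% in the non-targeting and COLCA2 gRNA libraries and 93.6% with POU2F3 gRNA.

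Counted over genes that reached a mean of 20, 455 of 14940 (3.05%) were at least 2-fold lower with POU2F3 gRNA than in the non-targeting library, the contrast that chose the genes. AMY2A, AMY1C, AMY2B and ADH1C, the 4 that reached the mean, were among them, and ADH1C reached it only through its non-targeting level. At least 2-fold lower with both COLCA2 guides were 302 genes (2.02%), the same 4 genes among them. This comparison uses the same non-targeting library as the choice of genes, so a high value in that library enters both. The POU2F3 gRNA and COLCA2 gRNA libraries were also set against each other, which leaves the non-targeting library out but keeps the POU2F3 gRNA library that chose the genes. Of 14940 genes, 138 (0.924%) were at least 2-fold lower with POU2F3 gRNA than with each COLCA2 guide, and AMY2A, AMY1C and ADH1C were among them. ADH1C, with 15 to 18 reads per COLCA2 library, did not pass an adjusted p of 0.05 in that comparison with edgeR's quasi-likelihood test (adjusted p = 0.0827) or DESeq2 (0.171), nor between COLCA2 and non-targeting gRNA with DESeq2 (0.0906). Both tools take their spread from the 2 COLCA2 libraries alone, so they do not measure the spread between libraries with POU2F3 or non-targeting gRNA. The log2 ratio to the COLCA2 guides was -4.72 ± 0.23 for AMY2A, -3.87 ± 0.29 for AMY1C and -0.39 ± 0.16 for AMY2B (SD, n = 2). For ADH1C, listed at 0 with POU2F3 gRNA, the bound counted at 3 reads was a mean log2 ratio of -2.85, without the counting error of the COLCA2 reads.

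The COLCA2 guides, which the choice of genes did not use, could be compared with each other. COLCA2 gRNA 1 had 126% of the level with gRNA 2 for AMY2A (exact 95% interval 97.1% to 163%), 118% for AMY2B (93.7% to 148%), 134% for AMY1C (96.5% to 186%) and 106% for ADH1C (50.3% to 225%). Each of these intervals held 100%. For the amylase sum the value was 124% (107% to 145%), so the guides differed by more than counting error once the genes were added. The POU2F3 transcript was also higher with gRNA 1, 3677 against 2351, while the COLCA2 transcript was lower with it, 3119 against 3541. A link of either transcript to the amylase difference was not tested.

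How far reads can be assigned to single genes was measured from the annotated transcripts by their 31-base words. None of the words of AMY1C were its own, and 98.9% of them were also in AMY1A. AMY2A had 16.2% of words found in no other gene, and it shared 54.6% with AMY2B. It also shared 49.2% with AMYP1, an amylase pseudogene of the same cluster that was at 0 in every library. AMY2B had 51.5% of its own words. The AMY2A and AMY2B transcripts were 97.8% identical where they aligned, and those of AMY1A and AMY1C 99.4%. A gene with few words of its own can lose or gain reads to its copies in the assignment, and whether reads of AMY2A or AMY1C were counted to AMY2B was not tested. The sum over the 5 genes does not depend on how reads were split among them, but it can depend on reads shared with genes outside the 5. The words found in these 5 genes only were 41.3% for AMY2A, 59.6% for AMY2B and 64.6% for AMY1C.

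AMY2B also overlaps RNPC3, which encodes a protein of the minor spliceosome and lies on the same strand, by 1425 bp, and 16.7% of the words of AMY2B were also in RNPC3. RNPC3 stood at 1504 in the non-targeting library, 521 and 562 with the COLCA2 guides and 569 with POU2F3 gRNA. Its log2 ratio was -1.40 with POU2F3 gRNA and -1.47 ± 0.08 (SD, n = 2) with the COLCA2 guides. Its log2 ratio between POU2F3 gRNA and the COLCA2 guides was 0.07 ± 0.08 (SD, n = 2), where that of AMY2B was -0.39 ± 0.16. Whether reads of joint RNPC3 and AMY2B transcripts were counted to AMY2B was not tested.

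ADH1C had 67.3% of words of its own, and it shared 26.1% with ADH1B and 12.2% with ADH1A. ADH1B, of which an annotated transcript starts in the ADH1C start region, overlaps ADH1C by 16269 bp. The non-targeting library had 135 normalized counts of ADH1B (141 reads), the COLCA2 libraries 42.5 and 51.7, and the POU2F3 gRNA library 12.6 (15 reads). It was thus lowest in the library in which ADH1C was listed at 0. Its log2 ratio was -3.32 with POU2F3 gRNA and -1.502 ± 0.196 (SD, n = 2) with the COLCA2 guides. Added together, ADH1C and ADH1B had log2 ratios of -4.15 with POU2F3 gRNA and -1.87 ± 0.13 (SD, n = 2) with the COLCA2 guides.

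**Figure D3:**
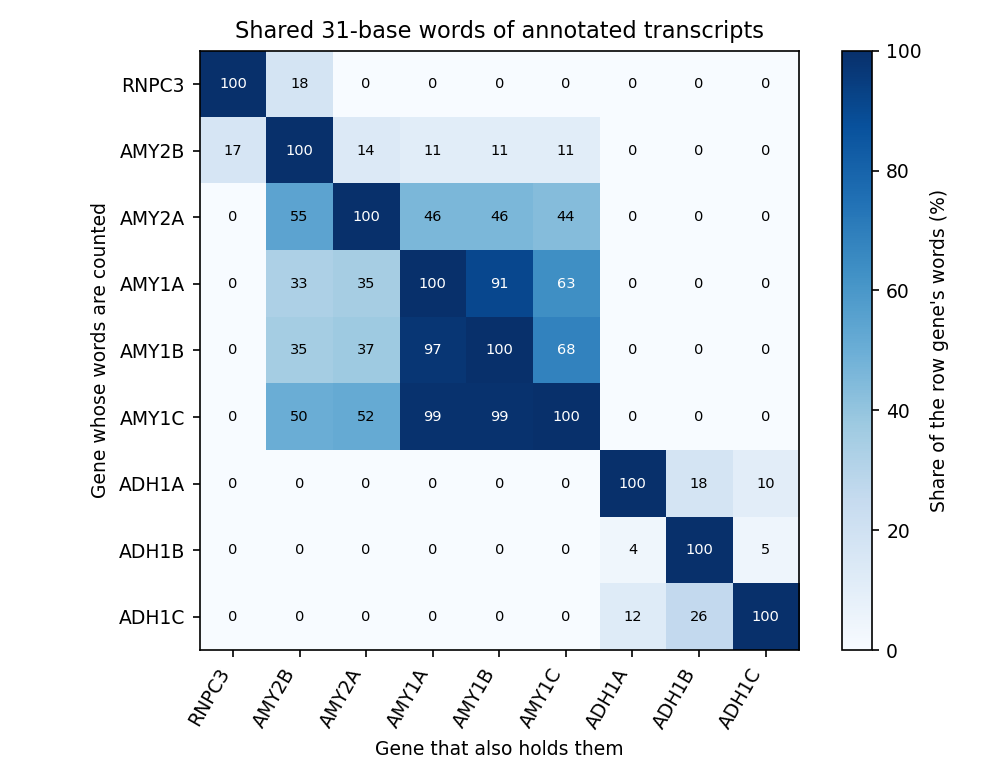
Share of the 31-base words in the annotated transcripts of each gene (row) that also occur in another gene (column), in percent. The AMY1 genes share up to 99% with each other, AMY2A shares 54.6% with AMY2B, and ADH1C shares 26.1% with ADH1B.

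The nearest protein-coding genes on each side of the amylase cluster had no common direction, and most of them lay far from it. RNPC3 overlaps AMY2B, while COL11A1 lies 444943 bp away and OLFM3 1556785 bp. On the side of higher coordinates the nearest gene, PRMT6, lies 3297989 bp away. Of the 10 nearest protein-coding genes, 5 on each side, 8 reached the mean of 20, and only RNPC3 was at least 2-fold lower with POU2F3 gRNA, where 3.05% of all genes tested were. OLFM3, NTNG1 and VAV3 were at least 2-fold higher there, as 6.73% of all genes were. OLFM3, for an olfactomedin-domain protein of neural tissue, had 24.8 in the non-targeting library and 185 with POU2F3 gRNA, and NTNG1, a netrin-like axon guidance gene, had 34.4 and 160. COL11A1, a fibrillar collagen gene, had 59.2 in the non-targeting library, 14.5 and 19.99 with the COLCA2 guides and 49.5 with POU2F3 gRNA. DPH5, a diphthamide synthesis gene, had 423 in the non-targeting library, 425 and 362 with the COLCA2 guides and 447 with POU2F3 gRNA. Around ADH1C, 3 of 10 neighbours reached the mean, and ADH1B alone was at least 2-fold lower.

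**Figure D4:**
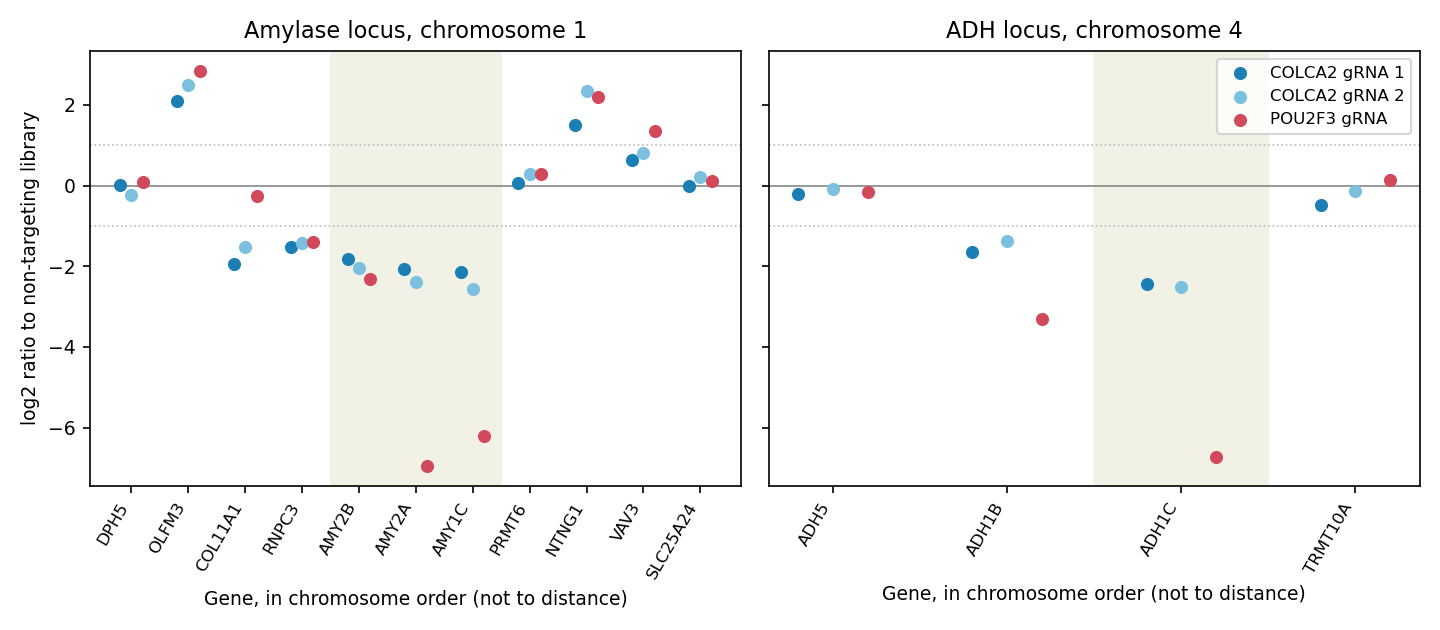
Log2 ratio to the non-targeting library (vertical axis) of the genes in and around the amylase cluster (left) and ADH1C (right), in chromosome order and not to distance, for the 2 COLCA2 gRNA libraries and the POU2F3 gRNA library. Shading marks the amylase genes and ADH1C, dotted lines mark 2-fold, and only genes with a mean of 20 or more are shown; among these neighbours RNPC3 and ADH1B lie below -1 in all 3 libraries and COL11A1 in the 2 COLCA2 gRNA libraries. The ADH1C point with POU2F3 gRNA comes from 0 reads and rests on the pseudocount.

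The other genes of the same enzyme families were read from lists. Of 7 other alcohol dehydrogenase genes, 2 reached the mean of 20: ADH1B, above, and ADH5, the class III enzyme that most cells express, which had 3998 in the non-targeting library, 3478 and 3745 with the COLCA2 guides and 3599 with POU2F3 gRNA. ADH6 had 24.8, 13.5, 31.8 and 7.55 in the same order, with no common direction.

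Of 22 genes of starch and glycogen metabolism, 17 reached the mean, and 2 passed 2-fold downwards and 0 upwards with POU2F3 gRNA, where 3.05% and 6.73% of all genes tested did. MGAM2, a maltase-glucoamylase-like gene, had 214 in the non-targeting library, 96.4 and 118 with the COLCA2 guides and 86.5 with POU2F3 gRNA. EPM2A, which encodes the glycogen phosphatase laforin, had 708, 295, 216 and 227. The median log2 ratio of the list was 0.22 with POU2F3 gRNA, beside -0.0037 over all genes tested. GANAB, a glucosidase of the endoplasmic reticulum, had the highest level, 13896 in the non-targeting library and 16346 with POU2F3 gRNA.

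Of 31 genes of retinol and aldehyde oxidation, the wider pathway of ADH1C, 27 reached the mean. At least 2-fold lower with POU2F3 gRNA was 1 of them, and 7 were at least 2-fold higher, where 3.05% and 6.73% of all genes tested were. The same counts, 1 and 7, were found with both COLCA2 guides, against 2.02% and 5.79% of all genes tested. LRAT, which esterifies retinol for storage, was the gene that was lower: it had 1387 in the non-targeting library, 340 and 400 with the COLCA2 guides and 267 with POU2F3 gRNA. ALDH1A3, which makes retinoic acid, had 269, 1233, 1411 and 1175. ALDH3A1, an aldehyde dehydrogenase of surface epithelia, had 30.6, 603, 759 and 368, and DHRS3, which turns retinal back to retinol, had 309, 1895, 2050 and 1512. ALDH1A1 had 5575, 6290, 7163 and 5319 and was within 2-fold in every library. ADH1C was thus listed at 0 with POU2F3 gRNA while most of this list was at or above its non-targeting level, with a median log2 ratio of 0.19.

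Markers of cell types that make amylase or alcohol dehydrogenase were read next. Of 26 acinar markers of pancreas and salivary gland, 6 were at 0 in every library, namely CPA1, CELA3A, PNLIPRP2, CLPS, PRSS2 and SYCN, and the acinar factor PTF1A had at most 10.4. The summed level of the list was between 312 and 401 and was 379 in the non-targeting library, so it did not follow the amylase sum. Among the 6 that reached the mean, SPINK1, a trypsin inhibitor, was the only one at least 2-fold lower with POU2F3 gRNA, where 3.05% of all genes tested were. It had 82.1 in the non-targeting library, 136 and 116 with the COLCA2 guides and 24.3 with POU2F3 gRNA. The 10 hepatocyte markers summed to between 410 and 471 in the 4 libraries, nearly all of it from the transferrin gene TF. Of 11 markers of gut epithelium, CDX2 alone reached the mean, with 423 in the non-targeting library and 283 with POU2F3 gRNA.

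Markers of the tuft cell-like state were lower in the same libraries as the amylase genes and ADH1C. Of 15 such markers, 11 reached the mean and 10 of these were at least 2-fold lower with POU2F3 gRNA, against 3.05% of all genes tested. The list holds the targeted POU2F3 transcript itself, which is among the 10 and in the summed level. TRPM5, a tuft cell channel gene, had at most 2.35 in any library, and HPGDS was at 0 in all but 1. The summed level was 56786 in the non-targeting library, 17962 and 13784 with the COLCA2 guides and 12218 with POU2F3 gRNA. AVIL, which encodes the actin-binding protein advillin, had 5093, 990, 742 and 242 in that order. Other markers had another pattern. DCLK1, the 1 tested marker within 2-fold, had 332, 150, 160 and 246. KIT had 3084, 1527, 1505 and 1515, and SOX9, the highest of the list, had 17848, 8463, 6645 and 7566. Of the 11, 5 were at least 2-fold lower with POU2F3 gRNA than with both COLCA2 guides, against 0.924% of all genes tested. The part of these markers in the amylase and ADH1C values was not tested. Of 5 epithelial markers, CDH1, KRT8, KRT18 and KRT19 were at least 2-fold higher with POU2F3 gRNA, against 6.73% of all genes, while EPCAM had 3986 in the non-targeting library, 2945 and 3408 with the COLCA2 guides and 2463 with POU2F3 gRNA. Their summed level was lowest, 12971, in the non-targeting library.

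The genes nearest in pattern were found by the distance between their 3 log2 ratios to the non-targeting library, over 12063 genes that reached 100 in that library. All 3 ratios share that library, so a distance describes these 4 libraries only. Nearest to the amylase sum were PLA2G4D, a phospholipase gene (distance 0.35), GFI1B, a transcription factor gene of tuft and blood cells (0.39), SUCNR1, the succinate receptor gene (0.41), LCP2, an adaptor of immune receptor signalling (0.43), and TMEM108 (0.43). PLA2G4D stood at 1429 in the non-targeting library, 373 and 280 with the COLCA2 guides and 90.6 with POU2F3 gRNA. GFI1B had 1899, 520, 315 and 181.

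For ADH1C the nearest genes depended on how its 0 reads with POU2F3 gRNA were treated. With the pseudocount of 1 they were AMY2A (0.45) and AMY1C (0.61), then AL357075.5 at 1.74, CRYM at 1.82 and HEPACAM2 at 1.91. With values of 0 set to 3 reads and no pseudocount, CRYM (0.51) and HEPACAM2 (0.75) came first, AMY1C was at rank 5 with 1.13 and AMY2A was at rank 20 with 1.92. No order of likeness to ADH1C can be read from these libraries. ADH1C, AMY2A and AMY1C had also been chosen by the POU2F3 gRNA ratio that enters the distance. CRYM, which encodes a thyroid hormone-binding protein, had 6126 in the non-targeting library, 1121 and 866 with the COLCA2 guides and 198 with POU2F3 gRNA. HEPACAM2, a membrane protein gene, had 918, 176, 98.8 and 28.5.

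**Figure D5:**
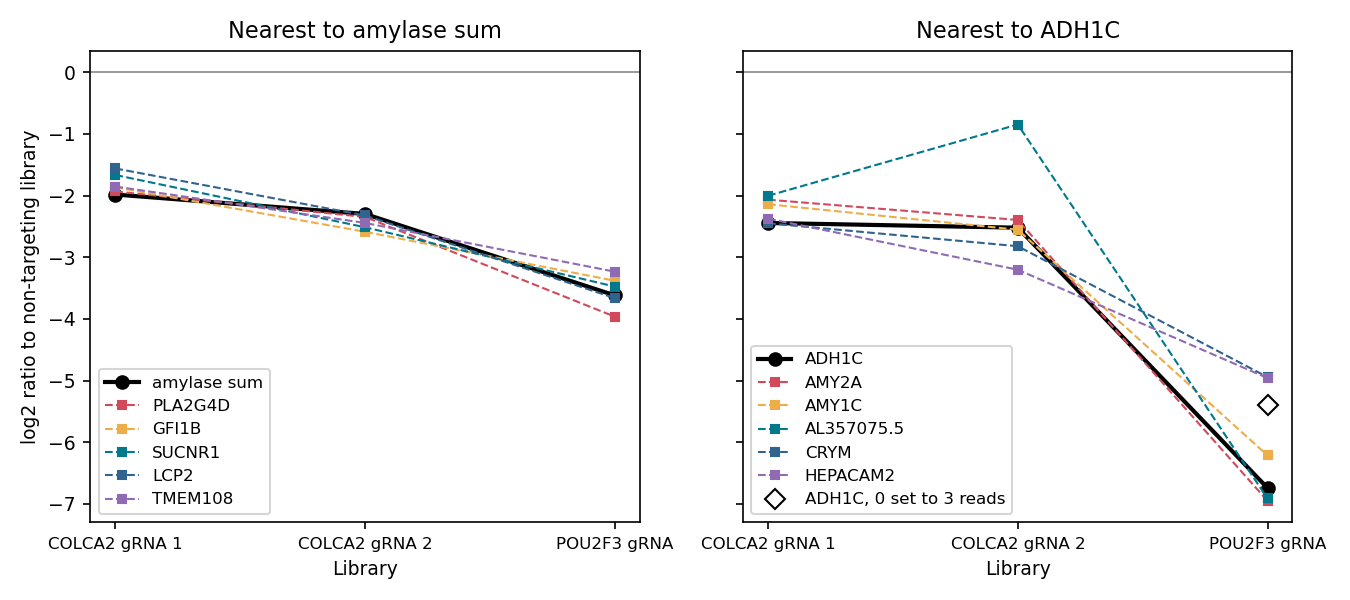
Log2 ratio to the non-targeting library (vertical axis) of the amylase sum (left) and ADH1C (right) in black, with the 5 nearest genes of each in colour, in the 2 COLCA2 gRNA libraries and the POU2F3 gRNA library. Lines only join the points of a gene; the ADH1C point with POU2F3 gRNA is at -6.74 with the pseudocount of 1 and at -5.40 with its 0 reads set to 3, an open diamond that lies between AMY1C at -6.21 and CRYM at -4.94.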

How the data were processed

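Poly(A) RNA of 4 NCI-H1048 libraries was sequenced from NEBNext Ultra II libraries, per the labels' protocols. The authors deposited 1 normalized count per gene and library (per the file headers), a signal on a linear scale; the submitters' processing notes name Salmon, DESeq2 and hg38. The annotation and the use of strand are not given in the sources used here. In each library 100% of the deposited signal values were whole multiples of 1 step (tolerance 0.01). Dividing by that step recovered whole numbers, called reads here. They are counts as assigned to genes in the authors' processing. How reads were divided among similar genes there could not be checked. Of 38145 gene rows, none of the 6 symbols studied had more than 1.

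Rows were summed by symbol, libraries were compared as log2(normalized count + 1), and genes past 2-fold with a mean of at least 20 were counted, with no test, since 2 of 3 groups held 1 library. Shares have exact binomial and levels exact Poisson intervals at 95%, which cover counting error only and not the assignment of reads to similar genes. A value of 0 was bounded at 3 reads. The genes studied, the lists and the motifs were chosen with earlier results of these data known; beyond the 6 genes, list members past 2-fold or with the 3 highest levels, the 5 neighbours on each side and the 5 nearest genes in pattern were named, and a few others were named after their values were seen. GENCODE 29 matched 89.8% of rows. As alternatives, edgeR 4.0.16 (quasi-likelihood) and DESeq2 1.42.0 were run on the recovered reads, tested first on simulated data, with other scalings, pseudocounts, minimums and fold thresholds. Their 1 residual degree of freedom is the difference between the COLCA2 libraries.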

Additional observations from a re-analysis of the deposited data

How the results depend on the processing

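No paired analysis was possible because 2 of the groups hold 1 library. None of the alternative ratios changed sign. The amylase sum moved only when AMY2B was left out, to -6.75 (POU2F3 against non-targeting gRNA) and -4.47 (POU2F3 against COLCA2 gRNA). ADH1C, at 0 reads with POU2F3 gRNA, depended on how the 0 was treated. Against the non-targeting library it was -6.80 at equal totals, -10.1 and -3.54 at pseudocounts of 0.1 and 10, -9.74 with edgeR, -9.42 with DESeq2, -4.15 summed with ADH1B and -5.40 at 3 reads. Against COLCA2 gRNA it was -7.51 and -1.49 at those pseudocounts, -7.21 with edgeR, -6.88 with DESeq2, -2.28 with ADH1B and -2.85 at 3 reads. COLCA2 against non-targeting gRNA gave -2.55 at equal totals and with DESeq2, -2.54 and -2.04 at those pseudocounts and -1.87 with ADH1B; the SD between guides, 0.05, is small here. Genes lower with POU2F3 gRNA than non-targeting numbered 1639 with no minimum, 233 at a minimum of 100 and 113 at 4-fold. Lower with both COLCA2 guides were 1028, 177 and 44; a single guide alone gave 477 to 544, and the group contrast, another call rule, 1122 with edgeR and 625 with DESeq2. Lower with POU2F3 gRNA than with each COLCA2 guide were 791, 62 and 27; against a single guide they were 231 to 268, and edgeR's group contrast called 35. Of 106 values of single amylase genes, 14 moved. Summing ADH1C with ADH1B, leaving out AMY2B and setting 0 to 3 reads were chosen after the data had been seen. Depth limits ADH1C, AMY1A and the POU2F3 gRNA values of AMY2A and AMY1C, which rest on 0 to 6 reads.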
